A study of Mus musculus with 12 samples.

Results

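The collagen prolyl and lysyl hydroxylases are the enzymes of the endoplasmic reticulum that hydroxylate proline and lysine in newly made collagen chains. Their 7 genes, P4ha1, P4ha2, P4ha3, P4hb, Plod1, Plod2 and Plod3, were taken by symbol, each symbol matching 1 Ensembl identifier among the 49315 genes of the count table. All 7 are described across the 4 groups of the study, with 3 RNA-seq libraries in each.

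The cells came from C57BL/6 mice, with no genetic change named in the labels, and the ages and sexes of the animals were not given. The first group was ILC2s cultured with eosinophils and the second ILC2s cultured alone. ILC2s, the group 2 innate lymphoid cells, live in tissues, lack the rearranged receptors of T and B cells and secrete type 2 cytokines. These were sorted from lung, expanded in IL-33, IL-25, IL-2 and IL-7 and then held for 48 h in IL-2 and IL-7. The third group was eosinophils cultured with ILC2s and the fourth eosinophils cultured alone. Eosinophils are granulocytes of type 2 immunity, here the blood cells not retained by beads against B220 and CD90, kept with IL-33 for 24 h before use. Every group was washed and spent the final 24 h in medium without cytokines, and the cells were separated by flow cytometry before lysis. Eosinophils had seen IL-33 in both of their groups, so coculture with unstimulated eosinophils was not measured. Whether the 3 libraries of a group came from different animals or cultures is not stated, and the p-values therefore reflect a spread that could be technical.

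Collagen prolyl 4-hydroxylase is a tetramer of catalytic alpha subunits, encoded by P4ha1, P4ha2 or P4ha3, and beta subunits, encoded by P4hb. The beta subunit is protein disulfide isomerase, an abundant enzyme that also works on its own. The hydroxyproline made by the tetramer keeps the collagen triple helix stable at body temperature. The lysyl hydroxylases encoded by Plod1, Plod2 and Plod3 prepare lysines for cross-links and for sugars. All of these dioxygenases use oxygen, 2-oxoglutarate, iron and ascorbate, and P4ha1, P4ha2 and Plod2 are known targets of the hypoxia-inducible factors (HIF). They are best known from fibroblasts, and leukocytes also make proteins with collagen-like domains.

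Library totals ran from 16769929 to 22928961 counts. By these totals alone, before the TMM scaling used below, 3 counts correspond to between 0.131 and 0.179 CPM (counts scaled to a common library size). Levels below are CPM scaled by TMM over the 12 libraries, with means ± SD over n = 3 libraries, and log2 fold changes come from edgeR with their SE. The labelled cell types carried their defining transcripts. The 17 ILC2 markers summed to 4816 to 4962 CPM in ILC2s with eosinophils and 5622 to 5703 CPM in ILC2s alone, and to 89.0 to 94.8 CPM in eosinophils with ILC2s and 69.2 to 81.4 CPM in eosinophils alone. The 15 eosinophil markers summed to 14743 to 15046 CPM in eosinophils with ILC2s and 11569 to 12583 CPM in eosinophils alone, and to 3.81 to 5.00 CPM in ILC2s with eosinophils and 3.52 to 4.14 CPM in ILC2s alone. In such sorted but bulk samples, a change in the number of cells holding a transcript and a change in its amount per cell cannot be told apart.

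**Figure D1:**
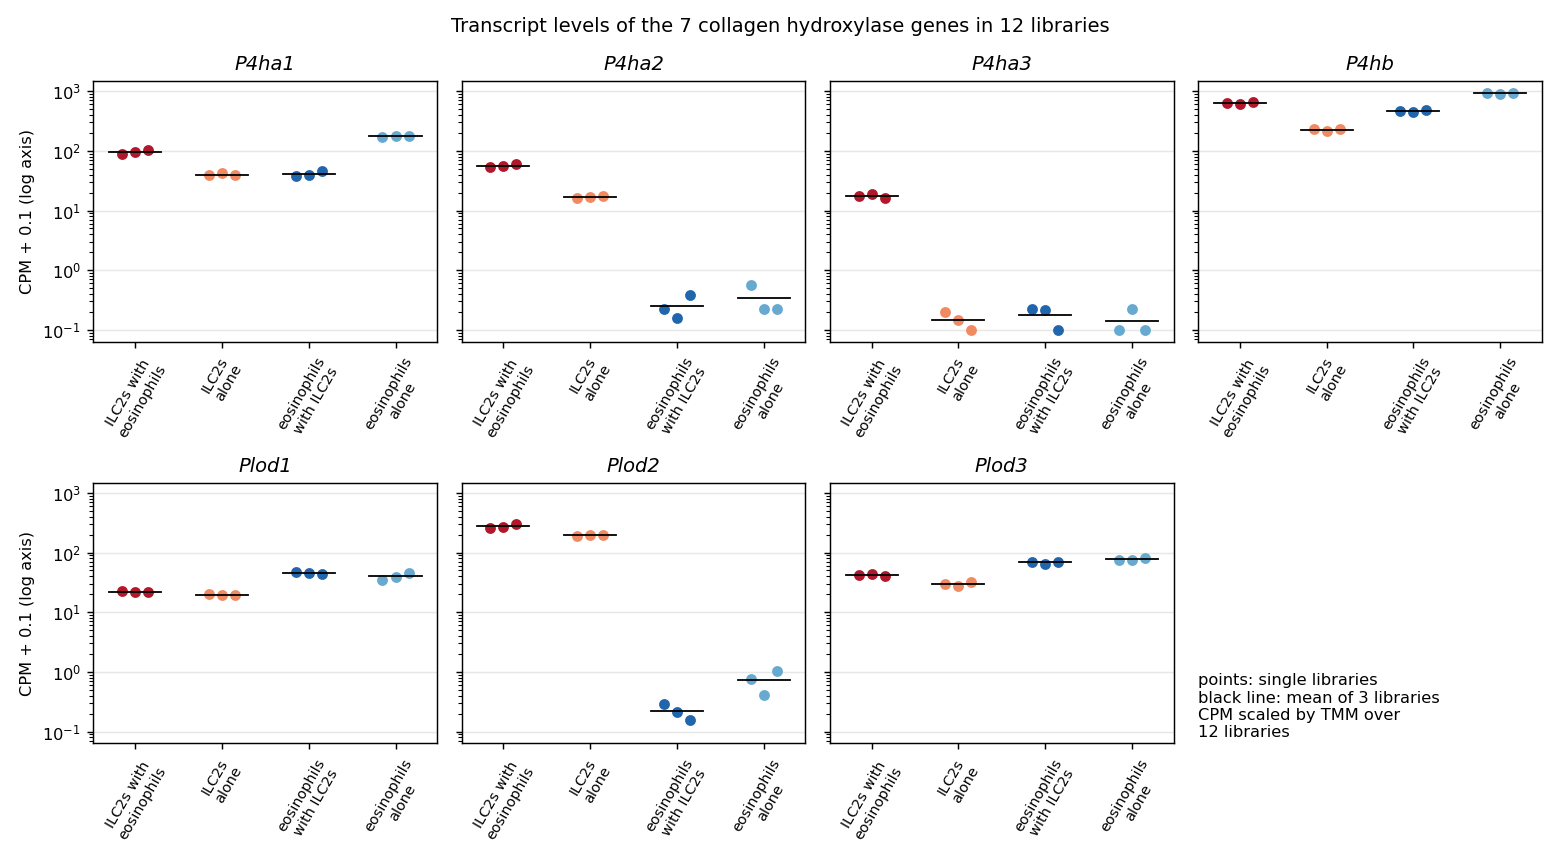
Level of each of the 7 genes in each of the 12 libraries, as CPM + 0.1 on a log axis, with points for single libraries and a black line for the mean of 3. P4ha2 and Plod2 stood well above 1 CPM in ILC2s and below 1 CPM in eosinophils, P4ha3 stood at 16.4 CPM or more in the 3 libraries of ILC2s cocultured with eosinophils and at traces elsewhere, and P4ha1 and P4hb were highest in eosinophils cultured alone.

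ILC2s cultured with eosinophils held more transcripts of the prolyl 4-hydroxylase subunits than ILC2s cultured alone, and P4ha3 was nearly absent from ILC2s cultured alone. Of the 7 genes, all of which were tested, 6 rose and Plod1 did not pass the test at an edgeR adjusted p under 0.05. Among all 14438 genes tested, 36.8% were called higher and 35.6% lower (72.4% in all), so a rise was common in this comparison. The median log2 fold change of the 7 genes was 1.27, against 0 for all genes tested. Both the count and this median include P4ha3, which passed the low count filter through the cocultured libraries.

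P4ha1, the alpha subunit used most widely across tissues, lies on chromosome 10 (59323296 to 59373304 on build mm10, ENSMUSG00000019916). It had 89.9, 94.4 and 104 CPM in ILC2s with eosinophils, against 39.2, 41.7 and 38.6 CPM in ILC2s alone. All 3 cocultured libraries stood above all 3 libraries of cells alone, and the rise was 2.40-fold (log2 fold change 1.27 ± 0.055, edgeR adjusted p = 3.4e-18). P4ha2, the second alpha subunit gene (ENSMUSG00000018906, chromosome 11, 54100095 to 54131665), had 53.1, 54.9 and 60.9 CPM in ILC2s with eosinophils, against 16.4, 17 and 17.4 CPM in ILC2s alone. Its libraries did not overlap either, and its rise was 3.30-fold (log2 fold change 1.72 ± 0.068, edgeR adjusted p = 2.8e-19).

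P4ha3, the alpha subunit gene with the lowest level in most tissues (ENSMUSG00000051048, chromosome 7, 100285520 to 100319699), had 405, 428 and 399 counts in ILC2s with eosinophils, against 2, 1 and 0 counts in ILC2s alone. These are 17.2, 19.0 and 16.4 CPM in the cocultured libraries, and in ILC2s alone the 3 counts give 0.0959, 0.0450 and 0 CPM. The ratio of summed counts by library totals was 373, with a 95% interval of 127 to 1812 that covers counting error only. P4ha3 passed the filter on low counts through the cocultured libraries, so that its call (log2 fold change 8.53 ± 0.28, edgeR adjusted p = 2.5e-21) follows from its presence there. The fitted value depends on the 3 counts in ILC2s alone and ran from 7.85 to 9.45 over the alternatives.

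P4hb, the beta subunit (ENSMUSG00000025130, chromosome 11, 120560298 to 120573253, minus strand), had 628, 619 and 646 CPM in ILC2s with eosinophils, against 229.9, 215 and 229 CPM in ILC2s alone. The groups did not overlap, and the rise was 2.79-fold (log2 fold change 1.48 ± 0.039, edgeR adjusted p = 2.2e-23). Per kilobase of exon, P4hb averaged 221 ± 4.79 CPM in ILC2s with eosinophils and 78.5 ± 2.97 CPM in ILC2s alone, the highest of the 7 genes in both groups.

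The lysyl hydroxylase genes had smaller fitted changes. Plod2, whose enzyme acts on the ends of collagen chains and so sets the kind of cross-link, lies on chromosome 9 (92542223 to 92608428, ENSMUSG00000032374). It had 257, 272 and 295 CPM in ILC2s with eosinophils, against 191, 194 and 200.1 CPM in ILC2s alone, which is 1.40-fold higher without overlap (log2 fold change 0.49 ± 0.044, edgeR adjusted p = 4.6e-11). Plod3, whose enzyme also adds sugars to hydroxylysine (ENSMUSG00000004846, chromosome 5, 136987019 to 136996648), had 42.0, 43.9 and 40.7 CPM in ILC2s with eosinophils, against 29.9, 27.9 and 31.4 CPM in ILC2s alone. It rose 1.41-fold (log2 fold change 0.49 ± 0.063, edgeR adjusted p = 5.8e-08). Plod3 shares 529 bases of exon with Znhit1 on the opposite strand, and with the strand setting of the counting not given, reads in that stretch of the 4519 exon bases of Plod3 cannot be told apart from those of Znhit1.

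Plod1, whose enzyme acts on lysines within the helix (ENSMUSG00000019055, chromosome 4, 147909753 to 147936767, minus strand), did not pass the test. It had 22.4, 21.5 and 22.1 CPM in ILC2s with eosinophils, against 20.4, 19.0 and 19.1 CPM in ILC2s alone (log2 fold change 0.17 ± 0.078, edgeR adjusted p = 0.054). Without replicate 1 of ILC2s alone it passed, at a log2 fold change of 0.20 and an edgeR adjusted p of 0.039.

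Eosinophils cultured with ILC2s held fewer transcripts of P4ha1 and P4hb than eosinophils cultured alone, the opposite direction to ILC2s. Of the 7 genes, P4ha2, P4ha3 and Plod2 were too low in both eosinophil groups to be tested. Of the 4 tested, P4ha1, P4hb and Plod3 were called lower and Plod1 did not pass, while 13.5% of all 13109 genes tested were called lower and 11.4% higher (24.9% in all). The median log2 fold change of the 4 was -0.61, against 0 for all genes tested.

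P4ha1 had 38.2, 38.6 and 45.9 CPM in eosinophils with ILC2s, against 172, 176 and 179 CPM in eosinophils alone. No library of one group came near the other, and P4ha1 was 4.38-fold lower with ILC2s (log2 fold change -2.13 ± 0.077, edgeR adjusted p = 2.5e-10). P4hb had 467, 451 and 479 CPM in eosinophils with ILC2s, against 935, 896 and 928 CPM in eosinophils alone. It was 2.02-fold lower with ILC2s (log2 fold change -1.01 ± 0.052, edgeR adjusted p = 7.9e-09).

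Plod3 had 70.6, 64.9 and 68.4 CPM in eosinophils with ILC2s, against 75.9, 74.5 and 81.6 CPM in eosinophils alone (log2 fold change -0.22 ± 0.066, edgeR adjusted p = 0.029). This small fall no longer passed with library totals in place of TMM (edgeR adjusted p = 0.085), with no low count filter (0.071), or without any 1 of 5 of the 6 libraries. Those were replicates 1 (0.053), 2 (0.13) and 3 (0.09) of eosinophils with ILC2s and replicates 1 (0.066) and 3 (0.076) of eosinophils alone. Plod1 had 46.7, 45.5 and 44.2 CPM in eosinophils with ILC2s, against 35.1, 39.1 and 45.1 CPM in eosinophils alone. These groups overlapped (log2 fold change 0.16 ± 0.088, edgeR adjusted p = 0.21). Without replicate 3 of eosinophils alone Plod1 was called higher, at a log2 fold change of 0.26 and an edgeR adjusted p of 0.04.

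The 3 genes without a test in eosinophils stood at traces there. P4ha2 had 2, 1 and 5 counts in eosinophils with ILC2s, against 7, 2 and 2 counts in eosinophils alone. P4ha3 had 2, 2 and 0 counts in eosinophils with ILC2s, against 0, 2 and 0 counts in eosinophils alone. Neither differed beyond counting error, since the ratio of summed counts was 0.681 (95% interval 0.238 to 1.86) for P4ha2 and 1.87 (0.268 to 20.7) for P4ha3.

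Plod2 had 3, 2 and 1 counts in eosinophils with ILC2s, against 10, 5 and 15 counts in eosinophils alone, a ratio of 0.187 (95% interval 0.0637 to 0.457, counting error only). The 17 ILC2 markers did not move one way in these libraries. Their sum, given above, was higher in eosinophils with ILC2s, and most of it was Ets1. Of the 8 tested, 3 were called lower (Gata3, Il2ra and Klrg1), Ets1 was called higher and 4 did not pass. The median log2 fold change of these 8 was -0.77. Gata3, the transcription factor of ILC2s, had 0.315 ± 0.155 CPM in eosinophils with ILC2s and 1.46 ± 0.708 CPM in eosinophils alone, and Ets1 had 76.3 ± 4.46 CPM in eosinophils with ILC2s and 52.1 ± 5.76 CPM in eosinophils alone. The part of ILC2 RNA in the Plod2 traces was not tested.

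**Figure D2:**
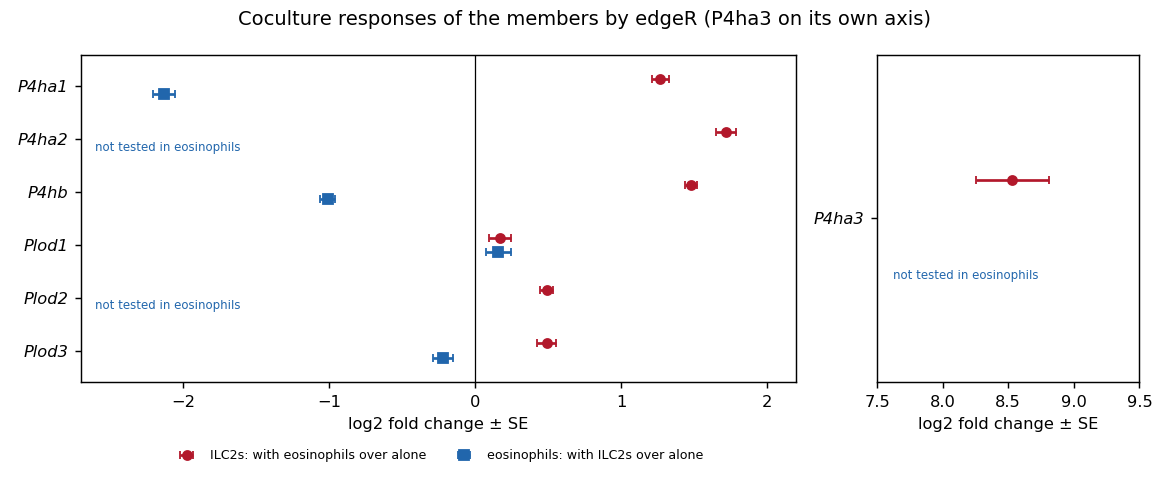
Log2 fold change ± SE (edgeR) of each gene for ILC2s with eosinophils over ILC2s alone (red circles) and for eosinophils with ILC2s over eosinophils alone (blue squares), with P4ha3 on its own axis. P4ha1 stood at 1.27 in ILC2s and -2.13 in eosinophils and P4hb at 1.48 and -1.01, while Plod1 lay close to 0 in both cells.

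The difference between these responses was tested in 1 fit of the 12 libraries. The 2 coculture comparisons share no library. The response of P4ha1 was higher in ILC2s than in eosinophils by 3.38 ± 0.099 on the log2 scale (edgeR adjusted p = 1.9e-18), that of P4hb by 2.47 ± 0.070 (1e-18) and that of Plod3 by 0.69 ± 0.093 (1e-06). For Plod1 the difference was -0.02 ± 0.12 (edgeR adjusted p = 0.93). Values for P4ha2 (2.29 ± 0.70, edgeR adjusted p = 0.0081), P4ha3 (7.72 ± 2.1, 0.0041) and Plod2 (2.88 ± 0.53, 6.8e-05) rest on the traces in eosinophils. P4ha2 no longer passed without replicate 1 of eosinophils alone (1.41, edgeR adjusted p = 0.22), nor P4ha3 without replicate 2 of eosinophils alone (4.73, 0.96). Among all 15745 genes tested, 26.8% were called higher in this contrast, 24.8% lower and 51.5% in either direction, and of the 7 genes 6 were, 3 of which had passed the low count filter through the ILC2 libraries.

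Between ILC2s alone and eosinophils alone the genes fell into 2 sets. P4ha2 and Plod2 were higher in ILC2s, P4ha1, P4hb, Plod1 and Plod3 were lower, and P4ha3 was at 3 counts in ILC2s and 2 in eosinophils and was not tested. Cell type, tissue of origin and the earlier cytokines differ together here. Of 14525 genes tested, 40.8% were called higher in ILC2s and 39.9% lower (80.7% in all). Plod2 had 3976, 4308 and 5733 counts in ILC2s alone, against 10, 5 and 15 counts in eosinophils alone (log2 fold change 8.26 ± 0.14, edgeR adjusted p = 1.5e-16). P4ha2 had 341, 378 and 500 counts in ILC2s alone, against 7, 2 and 2 counts in eosinophils alone (log2 fold change 6.16 ± 0.26, edgeR adjusted p = 9e-12). Both genes passed the low count filter through the ILC2 libraries, so that these calls follow from their presence there, and the fitted values depend on the traces in eosinophils. The ratio of summed counts by library totals was 461 (95% interval 323 to 683, counting error only) for Plod2 and 109 (60.9 to 219.5) for P4ha2.

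By log2 fold change P4ha1 (-2.13 ± 0.062) and P4hb (-2.03 ± 0.056) were lower in ILC2s alone, as were Plod3 (-1.37 ± 0.070) and Plod1 (-1.02 ± 0.095). The largest of these 4 edgeR adjusted p was 1.2e-07. Library totals in place of TMM moved the median of all genes to 0.60, against 0.03 with TMM, and the share of calls that were higher in ILC2s to 70.1%, against 50.5%. With library totals these 4 genes still passed, with Plod1 at -0.45.

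Over the 4 groups, P4hb averaged 631 ± 13.7 CPM in ILC2s with eosinophils, 225 ± 8.51 CPM in ILC2s alone, 466 ± 13.7 CPM in eosinophils with ILC2s and 919.7 ± 20.9 CPM in eosinophils alone, and no groups overlapped. P4ha1 averaged 96.2 ± 7.33 CPM in ILC2s with eosinophils, 39.8 ± 1.65 CPM in ILC2s alone, 40.9 ± 4.36 CPM in eosinophils with ILC2s and 176 ± 3.23 CPM in eosinophils alone. Its levels in ILC2s alone and in eosinophils with ILC2s overlapped on this TMM scale. By library totals they did not, with P4ha1 means of 49.8 CPM in ILC2s alone and 34.9 CPM in eosinophils with ILC2s. Plod3 levels ran, from high to low, from 77.3 ± 3.76 CPM in eosinophils alone through 68.0 ± 2.89 CPM in eosinophils with ILC2s and 42.2 ± 1.60 CPM in ILC2s with eosinophils to 29.7 ± 1.77 CPM in ILC2s alone, without overlap. Plod1 was at 45.5 ± 1.26 CPM in eosinophils with ILC2s and 39.7 ± 5.05 CPM in eosinophils alone, which overlapped, and at 22 ± 0.439 CPM in ILC2s with eosinophils and 19.5 ± 0.823 CPM in ILC2s alone.

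The alpha subunit mixture differed between groups when levels were set per kilobase of exon. P4ha1 made up 61.5% ± 1.17 of alpha subunit transcripts in ILC2s with eosinophils and 78.0% ± 0.858 in ILC2s alone. P4ha3 made up 14.8% ± 1.61 in ILC2s with eosinophils and 0.121% ± 0.126 in ILC2s alone, and P4ha2 23.7% ± 0.463 and 21.9% ± 0.944 in the same order. In eosinophils P4ha1 was nearly the sole alpha subunit transcript, at 99.5% ± 0.117 with ILC2s and 99.9% ± 0.0681 alone. Each exact permutation test of the P4ha1 share, two-sided over 20 splits, gave 0.1, the smallest p that 3 against 3 allows. The shares depend on the length assigned to P4ha2, and with the longest transcript of each gene the P4ha1 share was 48.1% in ILC2s with eosinophils and 63.9% in ILC2s alone.

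Summed alpha subunit transcripts per kilobase stood at 17.2% ± 0.778 of P4hb in ILC2s with eosinophils and 15.8% ± 1.14 in ILC2s alone, which overlapped (exact two-sided permutation p = 0.2). The overlap depends on the length used. With the longest transcript of each gene these means were 22.4% ± 0.99 in ILC2s with eosinophils and 19.6% ± 1.3 in ILC2s alone. Those libraries stood apart by a narrow margin. In eosinophils the alpha subunits were at 6.13% ± 0.506 of P4hb with ILC2s and 13.3% ± 0.428 alone, without overlap (exact permutation p = 0.1). With 3 against 3 these permutation tests cannot pass 0.05, so the shares are given as a description. Among the lysyl hydroxylases, Plod2 made up 80.2% ± 1.37 of transcripts per kilobase in ILC2s with eosinophils and 79.3% ± 0.730 in ILC2s alone. In eosinophils Plod3 made up 69.0% ± 0.919 with ILC2s and 74.1% ± 1.75 alone, most of the rest being Plod1.

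**Figure D3:**
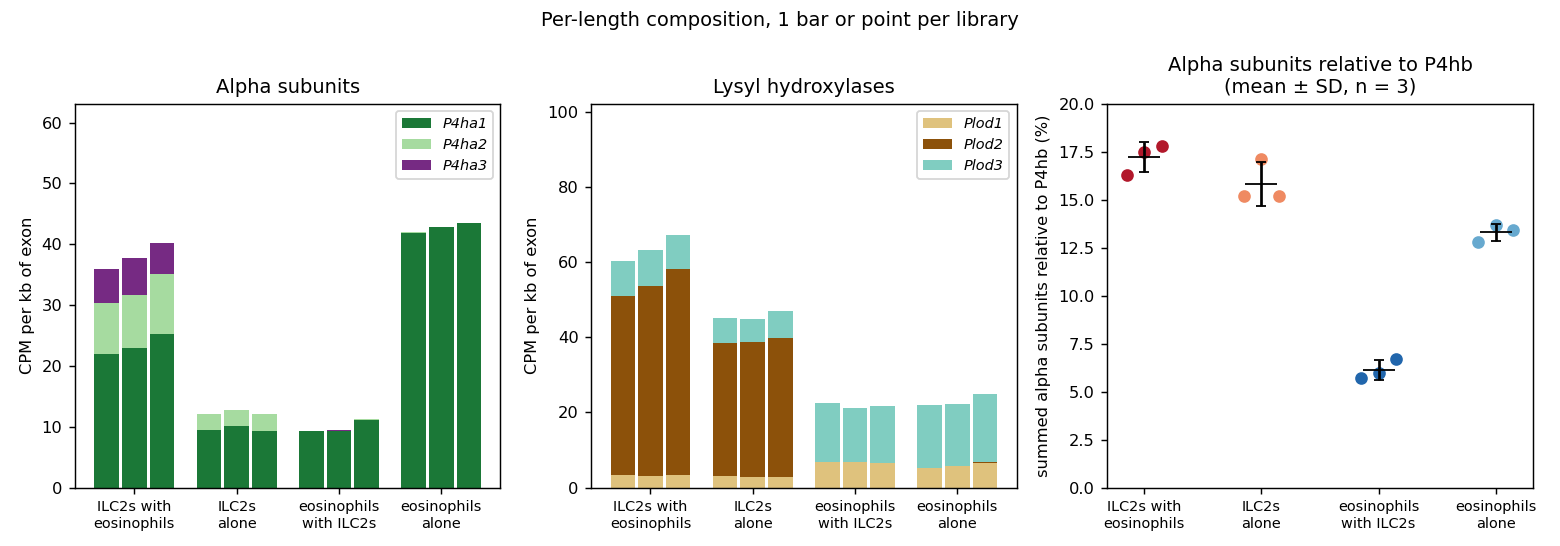
CPM per kilobase of exon of the alpha subunit genes (left) and lysyl hydroxylase genes (middle), stacked with 1 bar per library, and the summed alpha subunits relative to P4hb (right; points are libraries, bars mean ± SD, n = 3). P4ha3 adds 14.8% of the alpha subunit stack in ILC2s with eosinophils, Plod2 makes up about 80.2% of the lysyl hydroxylase stack there, and the alpha subunits relative to P4hb are lowest in eosinophils with ILC2s, at 6.13%.

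The stretches before the starts of P4ha1 and P4hb are shown because both genes moved in opposite directions in ILC2s and eosinophils, and that of P4ha3 because it was present in 1 group of the 4. Each is the 250 bases upstream of the RefSeq start on GRCm38.p6 (the assembly of mm10), 5′ to 3′ on the strand of the gene. Capitals mark ACGTG and GCGTG, the core letters of hypoxia response elements, on either strand. P4ha1 is chr10:59323046-59323295 on the plus strand, P4hb chr11:120573254-120573503 on the minus strand and P4ha3 chr7:100285270-100285519 on the plus strand.
P4ha1: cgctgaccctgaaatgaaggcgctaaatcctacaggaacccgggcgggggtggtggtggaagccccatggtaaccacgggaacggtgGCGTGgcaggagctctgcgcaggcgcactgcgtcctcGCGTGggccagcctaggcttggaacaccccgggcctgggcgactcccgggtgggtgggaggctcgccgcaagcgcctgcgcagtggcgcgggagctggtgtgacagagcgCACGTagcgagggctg
P4hb: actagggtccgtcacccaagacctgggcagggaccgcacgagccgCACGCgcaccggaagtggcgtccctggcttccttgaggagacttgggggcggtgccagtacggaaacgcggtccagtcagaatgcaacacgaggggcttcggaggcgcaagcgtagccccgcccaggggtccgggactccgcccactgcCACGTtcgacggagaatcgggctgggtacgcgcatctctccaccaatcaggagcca
P4ha3: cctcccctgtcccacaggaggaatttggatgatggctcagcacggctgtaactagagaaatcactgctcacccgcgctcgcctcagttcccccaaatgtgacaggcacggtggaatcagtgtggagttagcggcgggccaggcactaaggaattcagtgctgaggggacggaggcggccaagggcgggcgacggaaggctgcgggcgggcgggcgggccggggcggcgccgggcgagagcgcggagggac
The core letters occurred at 3 places in the P4ha1 window, 2 in that of P4hb and 0 in that of P4ha3. The same search found 3 in P4ha2, 4 in Plod3, whose window overlaps an exon of Znhit1, and 1 in Plod1. No RefSeq window was available for Plod2, which was not searched. At least 1 of them is held by 38.6% of the 32851 windows of this length in the RefSeq table, and 93.4% of windows hold fewer than 3. These shares were not matched for the content of G and C, which was 69.6% in the P4ha1 window and 70.0% in that of P4ha2. CACGTG, which contains ACGTG on both strands, is in none of these 6 windows and in 6.02% of all. Such matches describe letters only and are no evidence of binding.

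The HIF target list, 17 genes known to be induced by low oxygen that leave out the 7 hydroxylases, showed the same opposed directions as P4ha1 and P4hb. In ILC2s with eosinophils 36.8% of all genes tested rose and 35.6% fell. Of the 17 listed, 16 rose and Pdk1 fell (-0.24), with a median log2 fold change of 1.36. The 4 with the smallest p were Pgk1 (3.20 ± 0.043), Ldha (2.45 ± 0.038), both of glycolysis, Egln3 (2.93 ± 0.044), which hydroxylates HIF itself, and Bnip3 (2.88 ± 0.059) of mitophagy. In eosinophils with ILC2s 13.5% of all genes tested fell and 11.4% rose. Of the 16 listed genes tested there, 15 fell and Car9 did not pass (0.31, edgeR adjusted p = 0.32), with a median of -1.98. There Egln3 (-3.57 ± 0.059), Pgk1 (-2.39 ± 0.055), Bnip3 (-3.35 ± 0.087) and Egln1 (-2.57 ± 0.073) had the smallest p. Oxygen was not measured, and the part of HIF in the hydroxylase changes was not tested.

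Of 17 tested genes of the disulfide isomerase family and its oxidases, 13 rose in ILC2s with eosinophils, Tmx4 fell (-0.49) and 3 did not pass, where 36.8% of all genes rose and 35.6% fell. Pdia6 (1.69 ± 0.040), Pdia4 (0.88 ± 0.039) and Pdia3 (0.82 ± 0.037) rose, and Ero1l, the oxidase that recharges protein disulfide isomerase, by 1.68 ± 0.045. Of 16 tested in eosinophils with ILC2s 4 fell and 12 did not pass, against 24.9% of all genes called. Ero1l was the one with the smallest p, at 217, 235 and 236 CPM in eosinophils with ILC2s, against 1026, 1171 and 948 CPM in eosinophils alone (log2 fold change -2.22 ± 0.081, edgeR adjusted p = 2.5e-10). Pdia4 (-0.26), Txndc12 (-0.46) and Tmx2 (-0.38) fell by small amounts.

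Of the other enzymes and chaperones of collagen in the endoplasmic reticulum, 7 of 13 tested rose in ILC2s with eosinophils, 3 fell and 3 did not pass, with a median of 0.25. That share of calls is near the 72.4% of all genes. Ppib, the cyclophilin that speeds proline folding in collagen, rose by 0.85 ± 0.041, Fkbp9, another prolyl isomerase, by 1.76 ± 0.11 and Crtap, a partner of prolyl 3-hydroxylase, by 0.47 ± 0.062, while Mia3, which helps load collagen for export, fell by 0.32 on the log2 scale. In eosinophils with ILC2s Tmem38b (0.53) rose, Crtap (-0.44) fell and 6 of the 8 tested did not pass, a share of calls near the 24.9% of all genes. Serpinh1, the chaperone specific to collagen, named after its values were seen, had 1 count in ILC2s with eosinophils, 2 in ILC2s alone, 0 in eosinophils with ILC2s and 2 in eosinophils alone.

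Most collagen genes were too low to test. Of 44 collagen chains 9 were tested in ILC2s, 4 of them higher with eosinophils, 4 lower and 1 not past the threshold. Without the low count filter 7 were called lower. Of all genes tested with the filter, 36.8% rose and 35.6% fell. Col18a1, which encodes a basement membrane collagen, was the 1 called chain with a mean of at least 5 CPM, at 199, 195 and 186 CPM in ILC2s with eosinophils, against 62, 69 and 66.3 CPM in ILC2s alone (log2 fold change 1.55 ± 0.045, edgeR adjusted p = 1.8e-22). In eosinophils with ILC2s 2 of 7 rose, Col11a2 (1.21 ± 0.14) and Col5a1 (0.49 ± 0.096), both of fibrillar collagens, and the other 5 did not pass. That share of calls is near the 24.9% of all genes. Col5a1 averaged 52.2 ± 3.71 CPM in eosinophils with ILC2s and 36.4 ± 4.48 CPM in eosinophils alone.

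Of the genes that process or cross-link collagen, 2 of the 6 tested rose in ILC2s with eosinophils and 4 fell. Over all genes 36.8% rose and 35.6% fell in this comparison. Loxl2, a lysyl oxidase that acts on the same lysines as the Plod enzymes prepare, had 50.8, 53.5 and 55.1 CPM in ILC2s with eosinophils, against 3.36, 2.57 and 2.30 CPM in ILC2s alone (log2 fold change 4.29 ± 0.10, edgeR adjusted p = 1.1e-24). Pcolce, an enhancer of procollagen cleavage, fell by 1.11 on the log2 scale. In eosinophils 2 genes of this list were tested, Loxl3 (0.49 ± 0.31, edgeR adjusted p = 0.29) and Pcolce (-0.16 ± 0.11, 0.34), and neither passed. There 24.9% of all genes were called.

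Of 29 other 2-oxoglutarate dioxygenases, among them Egln1 and Egln3 of the HIF target list, 8 rose in ILC2s with eosinophils, 13 fell and 8 did not pass, with a median of -0.19, which is no larger a share of calls than the 72.4% over all genes. Besides Egln3, Egln1 rose (0.94 ± 0.042), and Hif1an, which hydroxylates an asparagine of HIF (-0.71 ± 0.049), and Riox2 (-0.74 ± 0.054) fell. Of 27 tested in eosinophils with ILC2s 2 rose, 8 fell and 17 did not pass (24.9% of all genes were called), with Egln3, Egln1, Alkbh5 (-0.80 ± 0.057), an RNA demethylase, and Jmjd6 (-0.86 ± 0.071) at the smallest p.

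Of the genes that supply the cofactors, 17 were tested in ILC2s and 19 in eosinophils, where 72.4% and 24.9% of all genes were called. Of the 17 tested in ILC2s with eosinophils 9 rose, 4 fell and 4 did not pass, led by the transferrin receptor gene Tfrc (3.78 ± 0.063), Glud1 (1.53 ± 0.039) and Got2 (0.92 ± 0.045), enzymes that make 2-oxoglutarate, and Slc2a1 (1.36 ± 0.045), a carrier of glucose and oxidised ascorbate. Of the 19 tested in eosinophils with ILC2s 3 rose, 4 fell and 12 did not pass. Slc2a1 (-1.57 ± 0.060), Slc2a3 (-1.43 ± 0.059) and Tfrc (-1.18 ± 0.072) fell, and the iron exporter gene Slc40a1 rose (1.54 ± 0.082).

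**Figure D4:**
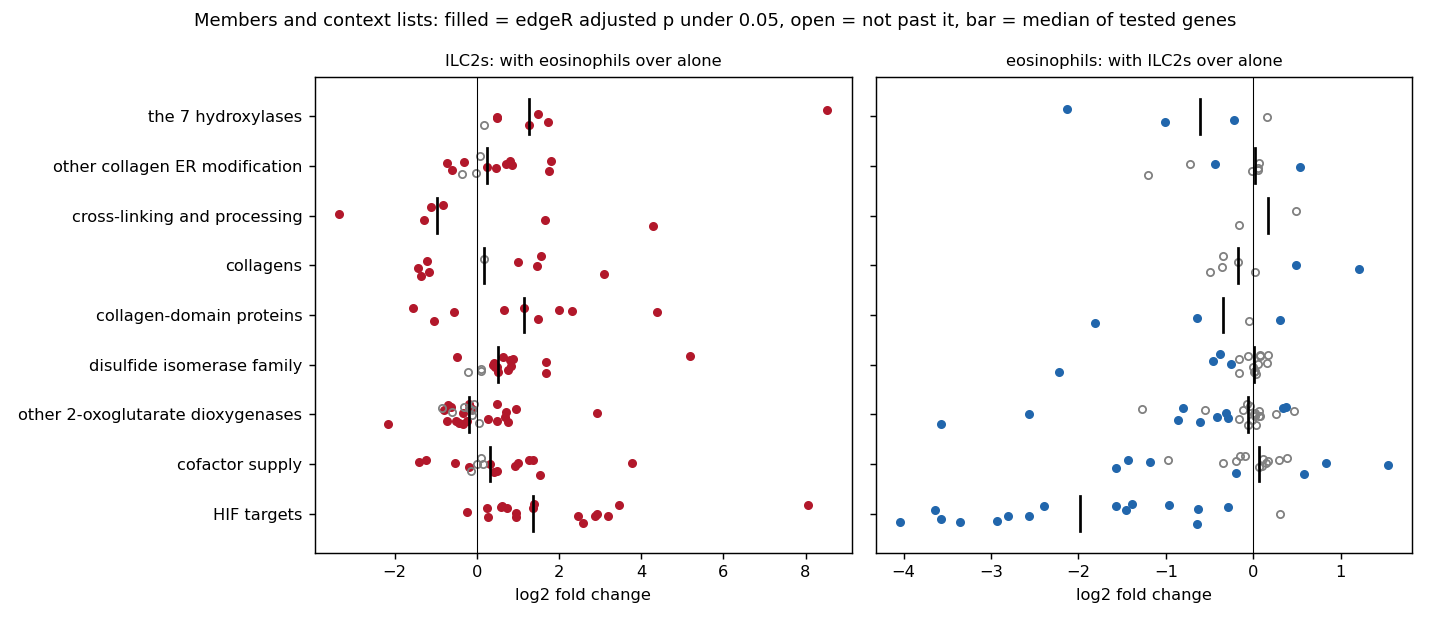
Log2 fold change of the tested members of each list for ILC2s with eosinophils over ILC2s alone (left) and eosinophils with ILC2s over eosinophils alone (right), where filled points passed an edgeR adjusted p under 0.05, open points did not and bars are medians. The hydroxylases and the HIF targets have medians of 1.27 and 1.36 in ILC2s and of -0.61 and -1.98 in eosinophils. The hydroxylase median in ILC2s includes P4ha3, which passed the low count filter through the cocultured libraries. In eosinophils the hydroxylase median is over 4 genes, among them Plod3, whose call did not hold in most alternatives. The medians of the other 7 lists plotted lie between -0.97 and 1.15 in ILC2s, the highest being that of the collagen-domain proteins. In eosinophils these 7 medians lie between -0.35 and 0.16.

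Markers of cells that commonly make collagen hydroxylases were set beside these results. The 15 fibroblast markers summed to 6.03 to 8.46 CPM in ILC2s with eosinophils, with 6 at 0 (Tcf21, Thbs2, Postn, Mfap4, Mfap5 and Dpt), and to 2.23 to 3.45 CPM in ILC2s alone, with 5 at 0 (Tcf21, Postn, Mfap4, Mfap5 and Dpt). Fn1 made up most of the first sum, at 4.67 ± 1.20 CPM in ILC2s with eosinophils and 0.785 ± 0.198 CPM in ILC2s alone. The defining fibroblast genes were near 0, with Dcn at 1 count in ILC2s with eosinophils and 2 in ILC2s alone, Col3a1 at 1 and 2, and Col1a1 at 27 and 11.

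The part of RNA from the partner cell in the ILC2 rises was not tested. P4ha3 had 1232 counts in ILC2s with eosinophils and 4 in the eosinophils cultured with them, and P4ha1 and P4hb were also lower in those eosinophils than in the ILC2s (40.9 and 466 CPM, against 96.2 and 631 CPM). The 11 basophil and mast cell markers summed to 129 to 139 CPM in eosinophils with ILC2s and 275 to 303 CPM in eosinophils alone. There they were lower with coculture, as P4ha1 and P4hb were. In ILC2s they summed to 75.4 to 94.4 CPM with eosinophils and 179 to 191 CPM alone, while P4ha1 and P4hb rose. Only 2 of the 11 averaged 1 CPM or more in each ILC2 group, so these sums rest on few genes. Cma1 and Tpsb2 were at 0 in ILC2s with eosinophils, and Fcer1a, Ms4a2, Tpsb2 and Prss34 in ILC2s alone. Tpsb2 and Prss34 were at 0 in eosinophils with ILC2s and none of the 11 was at 0 in eosinophils alone. The 15 fibroblast markers summed to 19.8 to 24.4 CPM in eosinophils with ILC2s, with Tcf21, Thbs2 and Dpt at 0, and to 11.1 to 14.4 CPM in eosinophils alone, with Tcf21, Mfap5 and Dpt at 0. The 12 macrophage markers summed to 1337 to 1365 CPM in eosinophils with ILC2s and 1081 to 1099.6 CPM in eosinophils alone. Of these 12, 5 averaged 1 CPM or more in each of the eosinophil groups, and Cd163 was at 0 in both. The 8 platelet markers, mostly Itga2b, summed to 587 to 608 CPM in eosinophils with ILC2s and 591 to 655 CPM in eosinophils alone, where Gp9 was at 0. The part of these cells in the falls of P4ha1 and P4hb was not tested.

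The genes with the most similar profiles over the 12 libraries were found by the root mean square difference of centred log2 CPM among 10197 other genes. This difference was lowest for P4ha1 with Pgm1 (0.223), a phosphoglucomutase, Grhpr (0.260) and Pafah1b3 (0.274). For P4hb it was lowest with Cited2 (0.0745), a HIF target that competes with HIF for its coactivator, Cst7 (0.0987), which encodes cystatin F, and Prelid1 (0.158). For P4ha2 these were Chst2 (0.394), Cenpf (0.433) and Gm39323 (0.474), and for Plod2 Ctla2a (0.464), Ly6a (0.493) and Gata3 (0.506), where differences between traces in eosinophils weigh in. For Plod1 they were Gna15 (0.0576), Tmbim6 (0.0694) and Rdh11 (0.0837), and for Plod3 Pycard (0.0677), Chmp5 (0.0823) and D8Ertd738e (0.0860). P4ha3 averaged under 5 CPM over the 12 libraries and was not matched. Pgm1, nearest to P4ha1, averaged 99.9 ± 7.87 CPM in ILC2s with eosinophils, 30.0 ± 1.89 CPM in ILC2s alone, 30.6 ± 2.62 CPM in eosinophils with ILC2s and 149 ± 1.20 CPM in eosinophils alone.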

How the data were processed

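RNA of sorted cells was measured in 12 libraries, 3 per group. The authors' deposited values are read counts per gene, whole numbers without normalization. Per the submitters' processing notes, the tools were STAR 2.5.2b, Trimmomatic 0.36, bcl2fastq 2.17 and featureCounts of Subread 1.5.2, with genome build mm10. The annotation, strand option and handling of multi-mapping reads were not given in the sources used here.

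GENCODE M21, on the same build, gave symbols for 49056 of 49315 identifiers, positions and exon lengths. The longest identical run between transcripts of any pair of the 7 genes was 24 bases (Plod1 and Plod3), and Plod2 shares 346 bases of exon with Gm38391 on the opposite strand. No replicates looked like 1 library deposited again, with chi-square values of 2.57 to 19.5 per degree of freedom.

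Counts were fitted in edgeR 4.0.16 on R 4.3.3 (filterByExpr, TMM, quasi-likelihood F test, no covariates), on the 6 libraries of a comparison, or all 12 for the difference of responses, and called at a Benjamini-Hochberg adjusted p under 0.05. The SE was the log2 fold change divided by the square root of F. Fits were run on simulated data with the same spread for every gene, in which no gene at trace counts was changed. Such genes are therefore not covered by that run. Intervals and floors cover counting error only. Alternatives were 2 scalings, DESeq2 1.42.0, 2 filters, a replicate block, a fit of all libraries, other gene lengths and leaving out each library.

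The members and lists were chosen with earlier results of these data known. The text names the 7 genes, up to 4 called genes per list with the smallest p and a mean of at least 5 CPM, and the 3 nearest profiles (prior count 2). Genes named for being lower, not past the threshold or near 0 (Pdk1, Car9, Tmx4, Loxl3, Serpinh1 and single markers such as Gata3 and Ets1) were chosen after their values were seen.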

Additional observations from a re-analysis of the deposited data

Results flagged for a closer look

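The response to coculture differed between ILC2s and eosinophils by the interaction test of edgeR for the 3 called genes that were measurable in both cells, where 51.5% of all genes tested were called. The difference, the response of ILC2s minus that of eosinophils, was 3.38 on the log2 scale for P4ha1, 2.47 for P4hb and 0.69 for Plod3. The test also called P4ha2 (2.29), P4ha3 (7.72) and Plod2 (2.88), which passed the low count filter through the ILC2 libraries, the eosinophil libraries holding between 0 and 15 counts each. Those 3 values rest on these traces. P4ha2 no longer passed without replicate 1 of eosinophils alone (1.41 ± 0.91, edgeR adjusted p = 0.22), nor P4ha3 without replicate 2 of eosinophils alone (4.73 ± 47, 0.96).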

How the results depend on the processing

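In ILC2s, the 6 rises kept their direction and call in all 13 alternatives, and so did the falls of P4ha1 (-2.22 to -2.08) and P4hb (-1.03 to -0.96) in eosinophils. In eosinophils the count of genes called higher was 2276 in the fit of all 12 libraries, against 1491, and ran from 948 to 1604 without single libraries, the lowest without replicate 3 of eosinophils with ILC2s. The members called higher there ran from 0 to 1, with Plod1 passing without replicate 3 of eosinophils alone. For ILC2s alone against eosinophils alone, library totals left 3666 genes called lower, against 5796. The median of all genes with library totals was -0.15 in ILC2s and 0.06 in eosinophils, and the share of calls that were higher was 41.0%, against 50.8%, in ILC2s and 58.0%, against 45.7%, in eosinophils. In the difference of responses it was 39.6%, against 51.9%. The cause of these changes was not tested. Same-numbered libraries shared little deviation from their group means (correlations of -0.02 to 0.10). With 3 libraries per group, these values cannot decide whether the numbers pair the samples. The replicate block left 10422 genes called in ILC2s, against 10454, and 4168 in eosinophils, against 3262, and P4ha1 at 1.27 in ILC2s and -2.13 in eosinophils. Of the 18 nearest profiles 17 were shared with library totals, an alternative chosen after seeing the data.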

Other observations

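A further list held genes of proteins other than collagens with collagen-like domains or related repeats. It also held Ache, whose enzyme itself has no such domain. Of the genes in this list, 9 were tested in ILC2s with eosinophils, where 36.8% of all genes rose and 35.6% fell. Among the 9, 6 rose and 3 fell, with a median log2 fold change of 1.15. Among those by the naming rule, Emilin2 (2.00 ± 0.15), C1qtnf12 (1.15 ± 0.091) and Emilin1 (0.66 ± 0.10) rose, and the acetylcholinesterase gene Ache (-1.56 ± 0.11), whose enzyme can be anchored by a collagen-like tail, fell. In eosinophils with ILC2s Emilin2, which encodes a glycoprotein of elastic fibres, was at 580.1 ± 11.6 CPM, against 1989 ± 29.8 CPM in eosinophils alone (log2 fold change -1.81 ± 0.051, edgeR adjusted p = 2.7e-11). C1qtnf12 also fell (-0.65 ± 0.091), and Emid1 rose (0.31 ± 0.086, edgeR adjusted p = 0.018). The rise of Emid1 no longer passed without replicate 2 or 3 of eosinophils with ILC2s (edgeR adjusted p = 0.061 and 0.068) or without replicate 2 of eosinophils alone (0.062).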
